A study of Capra hircus with 2 samples.

Results

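Cadherins, claudins and integrins are the membrane proteins that hold cells to one another and to the matrix, and 59 features of the fetal goat ovary data belong to these families, of 27271 in all. They were taken by symbol, as every feature named CDH, CLDN, ITGA or ITGB followed only by digits, which gave 23 cadherins, 18 claudins, 11 integrin alpha subunits and 7 integrin beta subunits. No symbol stood on more than 1 feature. CLDN11 and ITGB3 have no feature under that symbol and are not analysed here, and ITGAV lies outside the rule because its symbol holds no digit.

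The groups were ovary of female goat (Capra hircus) fetuses at E125 and at E85, where E stands for the embryonic day, with 1 library each and no treatment or allele named in the labels. Each library is a suspension of dissociated cells sequenced by 10x 3' droplet chemistry, which counts captured RNA molecules by unique molecular identifiers (UMIs). How many animals went into a library is not given in the sources used here. Since each stage is a single library, differences between animals cannot be measured, no test was made, and every ratio describes these libraries alone.

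Cadherins join neighbouring cells by binding calcium-dependently to cadherins on the cell opposite, and their tails anchor to actin through catenins. Claudins form the strands of tight junctions, where they seal or gate the space between cells. Integrins are pairs of 1 alpha and 1 beta subunit that bind matrix proteins such as collagens, laminins and fibronectin, and the pairing sets what is bound. In the fetal ovary, germ cells leave their nests and become enclosed by pregranulosa cells and a basement membrane as primordial follicles form, and E-cadherin, N-cadherin and integrins are known at these contacts.

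The E125 library held 8346 barcodes and 49692252 UMIs, and the E85 library 4397 barcodes and 17748948 UMIs. After filtering, 7023 cells at E125 and 3825 at E85 remained, with medians of 3193 and 3102 UMIs. The libraries shared 13 barcode sequences. Cells were clustered without the 59 genes and named from other markers, so that the names do not rest on the values described. Levels are counts per 1000000 UMIs of a class's sum (CPM), given with exact Poisson 95% intervals, and ratios of CPM carry exact conditional 95% intervals. All these intervals cover counting error only. A 3' library counts a molecule once whatever its length, but genes may still be captured unequally, so levels are compared mainly within a gene.

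Of the 59 genes, 8 had no UMI in any barcode of either library: CLDN2, CLDN6, CLDN8, CLDN9, CLDN14, CLDN16, CLDN17 and ITGB6. Another 12 had between 1 and 49 UMIs in all barcodes: CDH15, CDH16, CDH20, CDH22, CDH24, CLDN3, CLDN4, CLDN7, CLDN15, CLDN18, CLDN20 and ITGB2. The other 39 had 50 or more. A gene was counted as measured in a class with 50 or more UMIs summed over both stages, and as higher or lower at a ratio of 2 or more. In the 5 classes that held 50 or more cells at both stages, 29 of the 59 genes were measured at least once. Each of these classes held more UMIs at E125 than at E85. A gene low at E85 could thus be measured through its E125 counts alone, and counts of higher genes are a description.

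**Figure D1:**
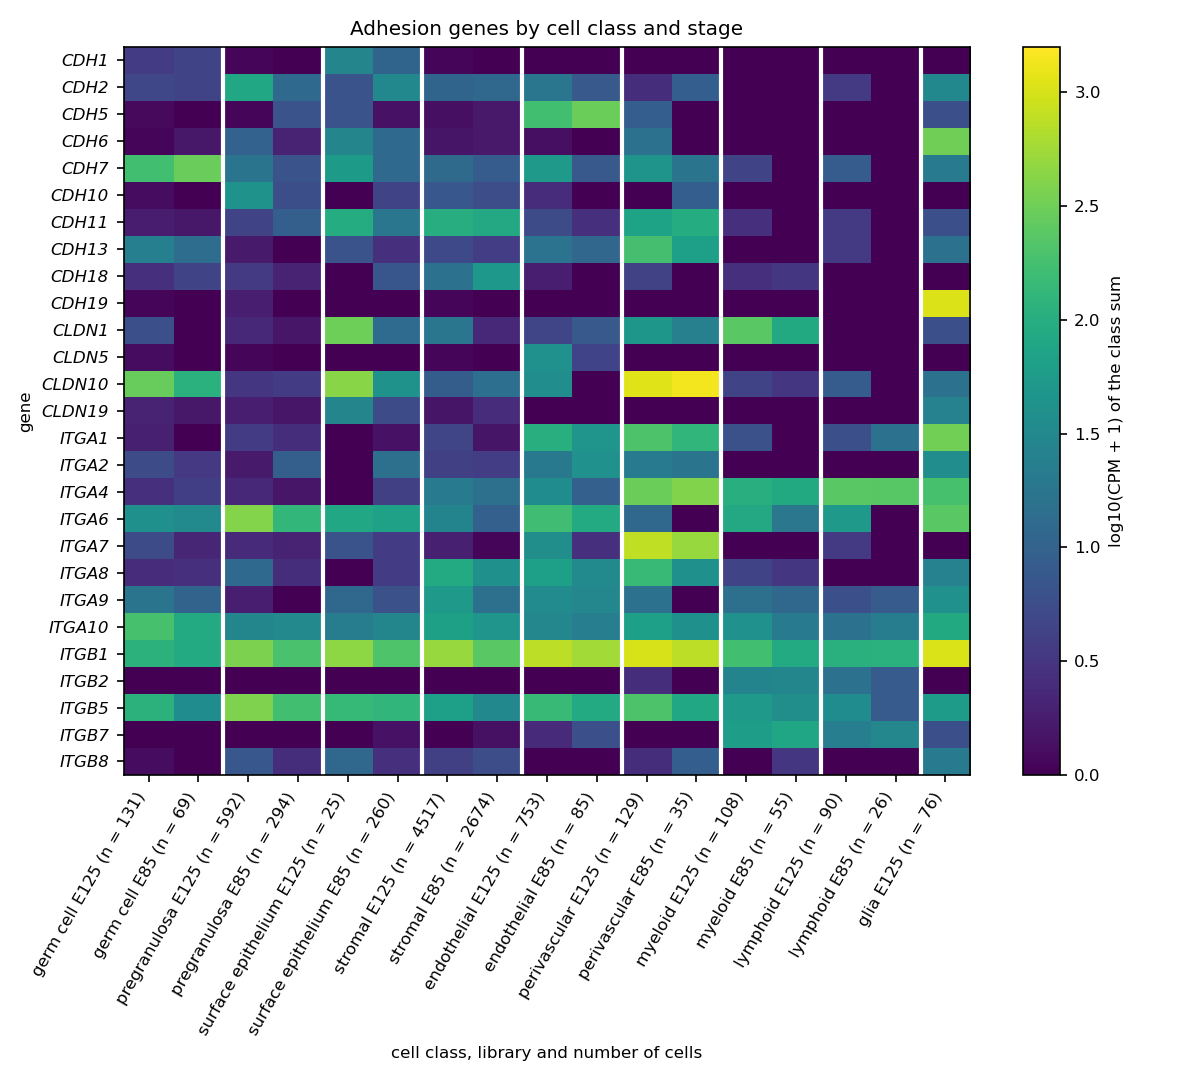
Map of levels, as log10(CPM + 1) of the class sum, for the 27 genes with 20 CPM or more and more than 3 UMIs in at least 1 of the classes drawn. Columns are 9 named classes with E125 left of E85 (glia-like cells at E125 only), and unnamed clusters are not drawn. CLDN10 is brightest in the perivascular-like columns, CDH19 in the glia-like column, and CDH7 in the germ cell-like columns.

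Germ cell-like cells numbered 131 at E125 and 69 at E85. All 10 germ cell markers that have a feature were detected at both stages, summing to 5688 CPM at E125 and 4317 CPM at E85. The median droplet of the class held 50845 UMIs at E125 and 4040 at E85, so a CPM is a share of the class total and not a number of molecules per cell. Droplets of 20000 or more UMIs, 72 at E125 and 22 at E85, held 98.4% and 90.6% of the class's UMIs at these stages. The 10 deepest droplets alone held 23.6% of them at E125 and 66.6% at E85.

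CDH7, CLDN10 and ITGA10 had levels in the germ cell-like class above those in pregranulosa-like cells. CLDN10 was higher still elsewhere, at 423 CPM in E125 surface epithelium-like cells (334 to 529) and over 1000 CPM in perivascular-like cells. In germ cell-like cells CLDN10, a claudin that forms ion-selective pores between epithelial cells, stood at 285 CPM at E125 and 109 CPM at E85, a ratio of 2.62 (2.25 to 3.05). ITGA10, a collagen-binding alpha subunit, stood at 182 CPM at E125 and 89.4 CPM at E85, a ratio of 2.04 (1.73 to 2.42). Its log2 ratio of 1.03 dropped below 1 in the large droplets alone, at 0.94, and with at most 10% mitochondrial UMIs, at 0.95. CDH7, a type II classical cadherin, ran the other way, with 170 CPM at E125 and 296 CPM at E85. That was 1.74-fold lower at E125 (1.57 to 1.92), within the 2-fold limit.

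The order of the stages for CDH7 depended on how droplets were weighted. Its log2 ratio of -0.80 for the class sum became 0.26 when every droplet counted equally and -0.15 when each was thinned to 2000 UMIs. In the large droplets its level was lower at E125, with a median of 160 CPM and a range of 31.0 to 513 CPM, against a median of 324 CPM and a range of 0.0 to 796 CPM at E85. In the smaller droplets it was 158 CPM at E125 (103 to 231) and 81.6 CPM at E85 (43.5 to 140). The intervals of the smaller droplets overlapped, so no direction is read from them.

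In large droplets the 3 genes were mostly detected together, which such depth would give for any genes at these levels. CDH7, CLDN10 and ITGA10 were all detected in 72 of 72 large droplets at E125 (exact binomial 95% interval from 95.01% up). At E85 that was 17 of 22 (54.6% to 92.2%), and the other 5 droplets had a pair of them. ITGB1 was likewise detected in all 72 at E125 and ITGB5 in 71. These intervals cover the sampling of droplets within 1 library. CLDN10 in single large droplets had a median of 256 CPM and a range of 20.7 to 624 CPM at E125, against a median of 88.2 CPM and a range of 28.4 to 252 CPM at E85. The ranges overlapped, and the median at E125 lay above the highest E85 droplet. The large droplets were deeper at E125, with a median of 135238 UMIs against 56360 at E85. That highest E85 droplet was also the deepest of its stage, at 214449 UMIs, and the part of depth was not tested.

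**Figure D2:**
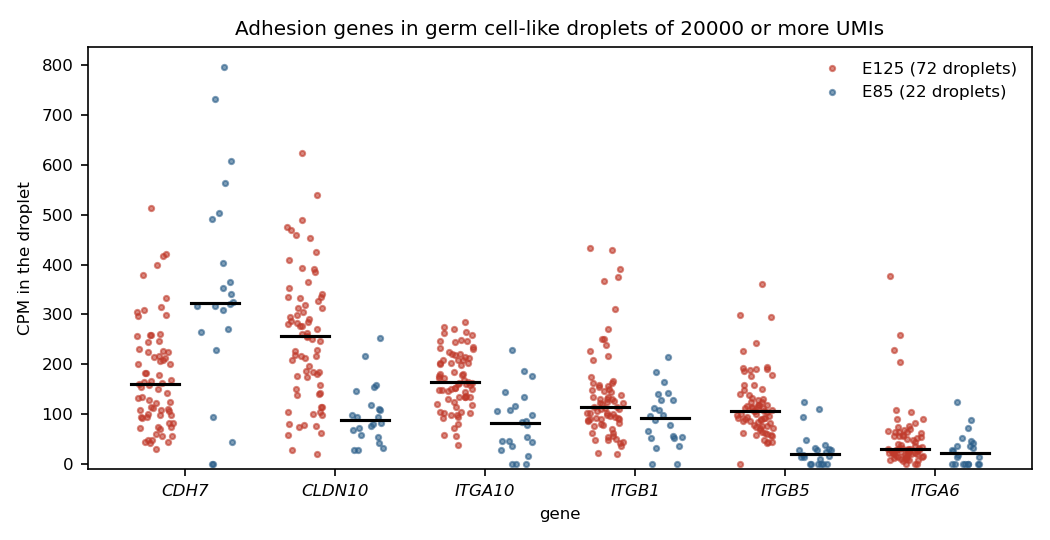
CPM of 6 genes in each germ cell-like droplet of 20000 or more UMIs, 72 at E125 (left of each pair) and 22 at E85, with a bar at the median. The median of CDH7 is lower at E125 (160 against 324 CPM) and the medians of CLDN10 (256 against 88.2), ITGA10 (164 against 81.4) and ITGB5 (106 against 21.2) are higher. Median depth was 135238 UMIs at E125 and 56360 at E85.

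Thinned to 2000 UMIs each, with 32 shallower droplets left out at E125 and 16 at E85, CDH7 was detected in 26.3% of germ cell-like droplets at E125 (17.9% to 36.1%) and 26.4% at E85 (15.3% to 40.3%). Unthinned, the shares were 71.0% and 42.0% at these stages. CLDN10 was detected in 35.4% of thinned droplets at E125 (26.0% to 45.6%) and 18.9% at E85 (9.44% to 32.0%), and in 71.8% and 43.5% without thinning. Myeloid-like cells, with median depths of 4523 UMIs at E125 and 7500 at E85, gave the background. For both genes, 1 of 86 thinned cells (1.16%) held a UMI at E125 and 0 of 54 at E85, with an exact upper limit of 6.60%.

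Among the integrins of germ cell-like cells, ITGB5, the beta subunit that pairs with alpha V in a vitronectin receptor, stood at 114 CPM at E125 and 34.7 CPM at E85, a ratio of 3.28 (2.52 to 4.33). ITGB1, the common partner of most alpha subunits including alpha 10, stood at 114 CPM at E125 and 89.4 CPM at E85, a ratio of 1.28 (1.08 to 1.52). ITGA6, a laminin-binding subunit, stood at 38.9 CPM at E125 and 32.4 CPM at E85. ITGA9, whose ligands include tenascin C, stood at 16.1 CPM at E125 and 9.41 CPM at E85. The collagen-binding ITGA11 stood at 16.5 CPM at E125 and 9.41 CPM at E85, and the collagen-binding ITGA2 had 47 UMIs at E125 and 4 at E85. The intervals of ITGA6 and ITGA2 included 1. ITGA2 passed 2-fold in 9 of 12 alternatives, and the log2 ratio of ITGA6 was 0.27, against 2.13 with every droplet weighted equally.

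Claudin 1, best known from the barrier of the epidermis, had 52 UMIs at E125 and 0 at E85 in the class. That was 2.90-fold higher against a floor of 3 UMIs for the E85 class sum. CDH13, T-cadherin, which is held in the membrane by a lipid anchor and has no tail inside the cell, stood at 23.0 CPM at E125 and 12.9 CPM at E85, a ratio of 1.78 (1.15 to 2.89). CDH3, or P-cadherin, was at 11.2 CPM at E125 and 10.6 CPM at E85. CDH4 (R-cadherin) had 53 UMIs at E125 and 6 at E85, CDH23, a part of the tip links of inner ear hair cells, had 69 and 11, and CDH26 had 54 and 14. Intervals of the ratios of CDH3, CDH4, CDH23 and CDH26 all included 1. With every droplet weighted equally the sign of the log2 ratio turned for CDH13 (-0.38), CDH23 (-0.87) and CDH26 (0.97). The same weighting took CDH3 to a log2 ratio of 2.55, against 0.08 for the class sum, and CDH4 to 3.61, against 0.56. E-cadherin (CDH1) was under the minimum, with 28 UMIs at E125 and 6 at E85, or 2.75 and 3.53 CPM.

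In all, 15 of the 59 genes were measured in germ cell-like cells. At E125, 4 of them (CLDN1, CLDN10, ITGA10 and ITGB5) were higher by 2-fold or more and 0 were lower. Over all 9029 features measured in the class, 19.3% were at least 2-fold higher and 17.7% lower. The median log2 ratio was 0.78 over the 15 genes and -0.07 over all features. Of the rest, 15 genes had no UMI in the class and 29 had between 1 and 49. The count of higher genes moved with the scaling: it was 8 with trimmed-mean (TMM) factors, 9 with every droplet weighted equally and 1, CLDN10, after thinning. Summed stromal markers stood at 196 CPM at E125 and 294 CPM at E85 in the class, with all 10 listed genes detected. Surface epithelium markers stood at 640 CPM at E125 and 255 CPM at E85, with UPK1B of 7 listed genes at 0 at both stages and LRRN4 at E85. Pregranulosa markers stood at 93.8 CPM at E125 and 57.1 CPM at E85, with WNT4 and AMH of 10 at 0 at E85. Their part in these ratios was not tested.

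**Figure D3:**
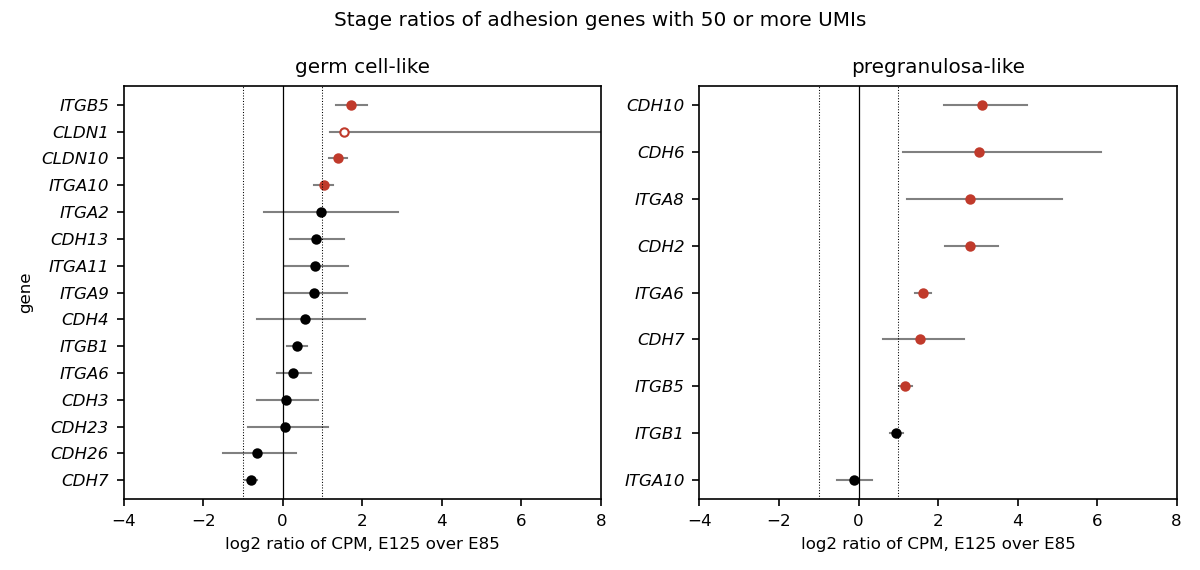
Log2 ratio of CPM, E125 over E85, with 95% intervals of counting error, for the genes with 50 or more UMIs in germ cell-like (left) and pregranulosa-like cells (right). Dotted lines mark 2-fold, red points lie past it, and the open point is a lower bound from 0 UMIs at E85 whose interval runs off the axis. In pregranulosa-like cells 7 of 9 genes lie right of the 2-fold line, and in germ cell-like cells 4 of 15.

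Pregranulosa-like cells numbered 592 at E125 and 294 at E85, with medians of 7862 and 5563 UMIs. Most came from different clusters at the 2 stages, 581 from cluster 5 at E125 and 291 from cluster 9 at E85. N-cadherin (CDH2), the classical cadherin of granulosa cells, stood at 80.5 CPM at E125 and 11.6 CPM at E85, a ratio of 6.97 (4.52 to 11.4). CDH10, a type II cadherin known mainly from brain, stood at 42.4 CPM at E125 and 4.95 CPM at E85, a ratio of 8.56 (4.45 to 18.9). CDH6, the K-cadherin first described in kidney, had 64 UMIs at E125 and 2 at E85, a ratio of the counts of 8.19 (2.18 to 69.1). CDH7 stood at 16.2 CPM at E125 and 5.50 CPM at E85, a ratio of 2.94 (1.54 to 6.30).

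Every cadherin measured in the class was thus at least 2-fold higher at E125, 4 of 4, but a gene that is low at E85 could enter only through its E125 counts. The CDH7 call was lost in 3 settings, with log2 ratios of 0.72 when cells counted equally, 0.83 without doublet removal and 0.62 under the clustering first run. For CDH2, CDH10 and CDH6 the log2 ratio stayed above 1 in each alternative that left them measured, with lowest values of 2.17, 1.76 and 1.04.

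Integrin subunits of the class were higher at E125 as well, apart from ITGB1 and ITGA10, which were within 2-fold. ITGA6, the alpha subunit of the laminin receptors, stood at 403 CPM at E125 and 132 CPM at E85, a ratio of 3.06 (2.68 to 3.51). Its partner ITGB1 stood at 367 CPM at E125 and 190 CPM at E85, a ratio of 1.93 (1.72 to 2.16), which passed 2-fold in 7 of 13 alternatives. ITGB5 stood at 384 CPM at E125 and 170 CPM at E85, a ratio of 2.27 (2.01 to 2.56). Its log2 ratio was 0.80 at clustering resolution 2 and 0.98 with the dividing cluster added, both below the limit.

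ITGA8, which pairs with beta 1 to bind nephronectin, had 82 UMIs at E125 and 3 at E85, a ratio of the counts of 6.99 (2.31 to 34.6). The collagen-binding ITGA10 differed little, with 28.4 CPM at E125 and 30.8 CPM at E85, a ratio of 0.923 (0.683 to 1.26).

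Shares of cells gave the same order for the abundant genes. Thinned to 2000 UMIs, with 61 cells left out at E125 and 16 at E85, ITGA6 was detected in 53.9% of pregranulosa-like cells at E125 (49.5% to 58.2%) and 21.6% at E85 (16.9% to 26.9%). CDH2 was detected in 14.9% at E125 (11.96% to 18.2%) and 3.24% at E85 (1.49% to 6.06%). Without thinning these shares were 80.2% and 40.5% for ITGA6, and 38.9% and 6.12% for CDH2. In myeloid-like cells CDH2 was found in 0 of 86 thinned cells at E125, with an exact upper limit of 4.20%. At E85 it was found in 0 of 54, with an upper limit of 6.60% that does not set the E85 share of CDH2 apart. For ITGA6 these cells gave 17.4% at E125 and 3.70% at E85.

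At E125 the class held cells with and without AMH, the anti-Mullerian hormone that granulosa cells begin to make as follicles grow. The 279 cells with AMH UMIs were deeper, with a median of 9593 UMIs, than the 313 without, at 6536. CDH2 stood at 93.9 CPM in cells with AMH (85.5 to 103) and 51.9 CPM in cells without (42.9 to 62.2). ITGA6 stood at 421 CPM with AMH (403 to 439) and 364 CPM without (339 to 390). The other 7 genes overlapped in their intervals, which does not show equal levels. CDH10, for example, stood at 39.2 CPM with AMH (33.8 to 45.2) and 49.2 CPM without (40.5 to 59.3). ITGB1 stood at 354 CPM with AMH (337 to 371.0) and 396 CPM without (370.7 to 423). ITGB5 stood at 373 CPM with AMH (356 to 390) and 409 CPM without (383 to 436). A split by detection of a gene also splits by depth, and the part of depth was not tested.

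Of the 59 genes, 9 were measured in pregranulosa-like cells, of which 7 were higher at E125 by 2-fold or more and 0 were lower. Over all 7398 features measured, 13.8% were higher and 11.4% lower. The median log2 ratio was 1.61 over the 9 genes and -0.06 over all features. The class held 7102974 UMIs at E125 and 1817326 at E85. Of the 7 higher genes, only ITGA6 and ITGB5 reached the minimum of UMIs at E85 itself. CDH2, CDH6, CDH7, CDH10 and ITGA8 entered through their E125 counts, so the count of 7 and the median of 1.61 are a description. A further 31 genes had between 1 and 49 UMIs and 19 had none. The count of higher genes was 3 after thinning (CDH2, ITGA6 and ITGB5) and 4 at resolution 2 (CDH2, CDH10, ITGA6 and ITGB1). In the class the summed pregranulosa markers stood at 3388 CPM at E125 and 1073 CPM at E85, the stromal markers at 455 and 1014 CPM, and the surface epithelium markers at 46.3 and 284 CPM. Of the 10 stromal markers NR2F1 was at 0 at E85, and of the 7 surface epithelium markers UPK1B and LRRN4 were at 0 at both stages. The part of these differences in the ratios was not tested.

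Within a library, levels of members differed between germ cell-like and pregranulosa-like cells. At E125, 13 of the 20 genes measured over both classes were higher by 2-fold or more in germ cell-like cells and 7 were lower. At E85 only 6 genes were measured, 3 higher and 3 lower. All features gave 36.7% higher and 23.8% lower at E125, and 34.2% and 19.1% at E85. A gene that reached 50 UMIs only through the class where it is high had to differ, so these counts are a description. CLDN10 was 126-fold higher in germ cell-like cells at E125 (77.7 to 221), with 285 CPM against 2.25 CPM, and 39.6-fold higher at E85 (16.7 to 123), with 109 CPM against 2.75 CPM. CDH7 was 10.5-fold higher at E125 (8.69 to 12.8) and 53.8-fold higher at E85 (29.0 to 113).

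Of the cadherins measured over both classes at E125, only CDH7 reached the minimum of UMIs in each class. The others entered through the class where they are high and had to differ, so their sides are a description. CDH7, CDH13, CDH3, CDH4, CDH23 and CDH26 were higher in germ cell-like cells, and CDH10, CDH6 and CDH2 were higher in pregranulosa-like cells. CDH10 had 3 UMIs in germ cell-like and 301 in pregranulosa-like cells, 144-fold lower in germ cell-like cells by the ratio of the counts, with an interval that starts at 48.7. CDH2 was 21.0-fold lower in germ cell-like cells, with 3.83 CPM against 80.5 CPM. CDH13 was 32.7-fold higher, with 23.0 CPM against 0.704 CPM. CDH23 and CDH26, with 69 and 54 UMIs in germ cell-like cells, had none in pregranulosa-like cells.

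Among integrin subunits, ITGA6, ITGA10, ITGB1 and ITGB5 reached the minimum of UMIs in both classes at both stages. The sides of ITGA11, ITGA9, ITGA2, ITGA7 and ITGA8, and of CLDN1, are a description, because these genes did not reach it in both classes. ITGA10 was 6.41-fold higher in germ cell-like cells at E125 (5.54 to 7.45) and 2.90-fold higher at E85 (2.12 to 4.02). ITGA11, ITGA9, ITGA2 and ITGA7 were also higher at E125, as was CLDN1 at 4.03-fold. ITGA8 was 7.34-fold lower at E125, with 1.57 CPM against 11.5 CPM. ITGA6 was 10.4-fold lower at E125, with 38.9 CPM against 403 CPM, and 4.07-fold lower at E85, with 32.4 CPM against 132 CPM. ITGB1 and ITGB5 were lower in germ cell-like cells at both stages, ITGB1 by 3.21-fold at E125 and 2.13-fold at E85, and ITGB5 by 3.38-fold and 4.88-fold.

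As means per droplet, the beta subunits gave another order, except for ITGB5 at E85. Germ cell-like droplets were deeper by the median at E125 (50845 against 7862 UMIs) but not at E85 (4040 against 5563). ITGB1 had 8.88 UMIs per germ cell-like droplet and 4.41 per pregranulosa-like cell at E125, and 2.20 and 1.18 at E85. Of its UMIs in the 69 germ cell-like droplets of E85, 65.8% lay in 10 droplets. ITGB5 had 8.83 UMIs per germ cell-like droplet and 4.61 per pregranulosa-like cell at E125, but 0.855 and 1.05 at E85. Pregranulosa markers were also present in germ cell-like droplets, at a median of 0.182 times their number per pregranulosa-like cell over 7 markers at E125 and 0.23 times over 5 at E85. At E125 CDH2 stood at 0.308 times, CDH10 at 0.045, CDH6 at 0.0706, ITGA6 at 0.626 and ITGA8 at 0.882 times. The markers ran from 0.0178 to 0.941, a range too wide to set these genes apart, and nothing is read from it.

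**Figure D4:**
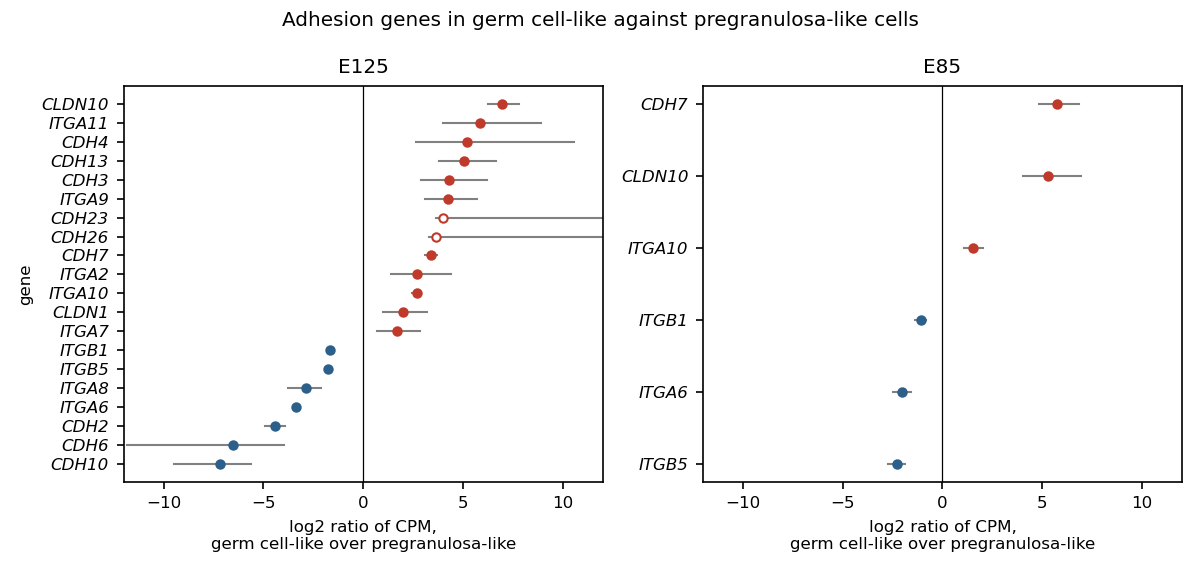
Log2 ratio of CPM, germ cell-like over pregranulosa-like, at E125 (left) and E85 (right), with 95% intervals of counting error. Red points are higher in germ cell-like cells and blue ones lower, and open points are lower bounds where pregranulosa-like cells had 0 UMIs. CLDN10, CDH7 and ITGA10 lie to the right at both stages, and ITGA6, ITGB1 and ITGB5 to the left.

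Stromal-like cells, 4517 at E125 and 2674 at E85, expressed CDH11, the cadherin of mesenchymal cells, at 98.7 CPM at E125 and 83.8 CPM at E85. Different clusters held the class at each stage, clusters 1, 2, 3 and 7 most of it at E125 and clusters 0 and 6 at E85. ITGB1 stood at 514 CPM at E125 and 239 CPM at E85, a ratio of 2.15 (2.05 to 2.27). ITGA8 stood at 90.2 CPM at E125 and 39.0 CPM at E85, a ratio of 2.31 (2.04 to 2.63). ITGA9 stood at 51.9 CPM at E125 and 14.4 CPM at E85, a ratio of 3.62 (2.96 to 4.46). ITGA6 stood at 26.6 CPM at E125 and 8.66 CPM at E85, a ratio of 3.07 (2.36 to 4.05). ITGB5 stood at 63.7 CPM at E125 and 29.9 CPM at E85, a ratio of 2.13 (1.84 to 2.48), and ITGA10 at 65.4 and 45.0 CPM, within the limit.

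The stromal gene that went the other way was CDH18, a type II cadherin, which stood at 14.5 CPM at E125 and 50.3 CPM at E85, 3.48-fold lower (2.93 to 4.15). Its level was between 7.76 and 24.2 CPM in the 5 stromal-like clusters of E125 and between 43.7 and 71.1 CPM in the 4 of E85, so no cluster of either stage reached the other's range. Under 20 CPM at both stages, CDH4, CDH17, CLDN1, ITGA1 and ITGA11 were also at least 2-fold higher at E125, by 4.89 to 18.0-fold. Several of the higher genes were uneven among the E125 clusters. CLDN1 had 138 of its 238 UMIs in cluster 7 and 88 in cluster 3. CDH17 had 119 of its 160 UMIs in cluster 1, while clusters 3 and 7 stood at 2.14 and 2.58 CPM, beside 2.22 and 3.17 CPM in clusters 0 and 6 at E85. ITGA6 stood at 39.3, 29.95 and 46.5 CPM in clusters 1, 2 and 12 of E125 but at 6.41 and 7.74 CPM in clusters 3 and 7, beside 9.23 and 8.25 CPM in clusters 0 and 6 at E85. ITGA8 stood at 35.1 CPM in cluster 7 of E125 and at 56.4 to 123 CPM in the other 4, beside 37.1 to 45.7 CPM in the clusters of E85. Perivascular markers in the class summed to 712 CPM at E125 and 409 CPM at E85, with all 9 detected at both stages, and their part in the ratios was not tested.

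In stromal-like cells 21 genes were measured, 10 at least 2-fold higher and 1 lower, beside 17.9% higher and 11.2% lower among 9973 features. The median log2 ratio was 0.65 over the 21 genes and -0.03 over all features. Another 24 genes had 1 to 49 UMIs and 14 had none.

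Endothelial-like cells, 753 at E125 and 85 at E85, were marked by CDH5 (VE-cadherin), the cadherin of endothelial junctions. It stood at 170 CPM at E125 and 306 CPM at E85, 1.80-fold lower (1.53 to 2.11), and passed the 2-fold limit only after thinning, at a log2 ratio of -1.20. CLDN5, the main claudin of vessel walls, had 232 UMIs at E125 and 2 at E85, a ratio of the counts of 11.7 (3.21 to 97.5). CLDN10 had 208 UMIs at E125 and 0 at E85, 7.02-fold higher against the floor of 3 UMIs. CDH7 stood at 53.5 CPM at E125 and 6.83 CPM at E85, a ratio of 7.84 (3.03 to 29.0).

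ITGB1 in this class stood at 754 CPM at E125 and 572 CPM at E85, and ITGA6 at 163 and 88.7 CPM. ITGB5 stood at 145 CPM at E125 and 90.4 CPM at E85, with a ratio of 1.60 that was within the limit. ITGA1, a collagen-binding subunit, stood at 103 CPM at E125 and 46.1 CPM at E85, a ratio of 2.23 (1.52 to 3.41) whose log2 value was 0.84 when cells counted equally. ITGA4 stood at 34.7 CPM at E125 and 8.53 CPM at E85, a ratio of 4.07 (1.71 to 12.7). ITGA7 had 214 UMIs at E125 and 1 at E85, a ratio of the counts of 21.7 (3.85 to 859). ITGA2 was lower, at 18.5 CPM at E125 and 41.0 CPM at E85, by 2.22-fold (1.36 to 3.48), and that call was lost without doublet removal.

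Of the 59 genes, 16 were measured in endothelial-like cells, 7 higher and 1 lower, beside 19.2% and 7.5% of 6989 features. The median log2 ratio was 0.92, against 0.17 over all features. The class held 5791349 UMIs at E125 and 586004 at E85, and none of the 7 higher genes reached 50 UMIs at E85 itself. They entered through their E125 counts, so this count and median are a description. A further 21 genes had 1 to 49 UMIs and 22 had none. The seventh higher gene, CDH2, had 99 UMIs at E125 and 4 at E85, and its interval of 0.948 to 9.37 included 1. Perivascular markers in endothelial-like cells summed to 442 CPM at E125, with all 9 detected, and 71.7 CPM at E85, with CSPG4 and DES at 0. CLDN10 and ITGA7, the genes with 0 and 1 UMIs at E85, are highest in perivascular-like cells, and the part of these markers in the ratios was not tested. The E125 cells came mostly from cluster 4, which had 40.6 CPM of CLDN10 and 60.3 CPM of CDH7, while cluster 21, of 61 cells, had 2.18 CPM of each. That cluster, whose leading genes are CCL21, SCN3A and the lymphatic marker PROX1, had ITGA9 at 269 CPM, against 14.3 CPM in cluster 4.

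**Figure D5:**
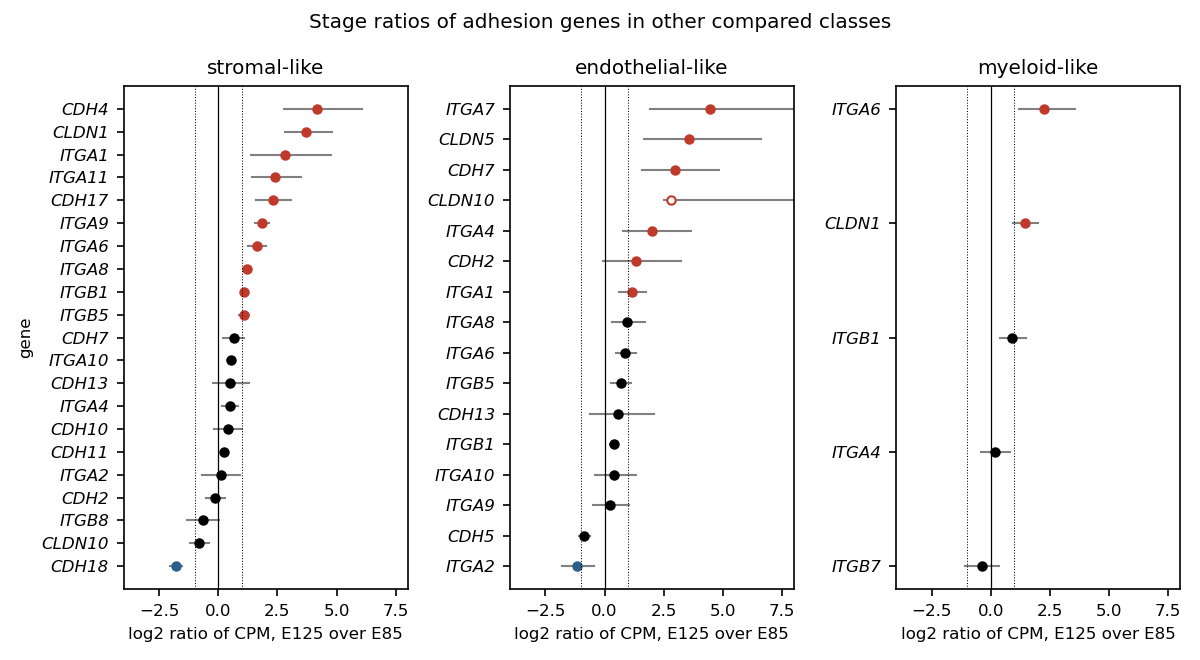
Log2 ratio of CPM, E125 over E85, with 95% intervals of counting error, in stromal-like, endothelial-like and myeloid-like cells. Red points lie past 2-fold higher and blue ones past 2-fold lower, and intervals that reach the right edge go on beyond it. The open point for CLDN10 in endothelial-like cells is a lower bound from 0 UMIs at E85, and CDH18 and ITGA2 are the blue points.

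Myeloid-like cells, 108 at E125 and 55 at E85, had 5 measured genes. CLDN1 stood at 242 CPM at E125 and 87.7 CPM at E85, a ratio of 2.76 (1.92 to 4.02). ITGA6 stood at 84.7 CPM at E125 and 17.5 CPM at E85, a ratio of 4.83 (2.26 to 11.8). ITGB1 stood at 169 CPM at E125 and 89.9 CPM at E85, and ITGA4 at 101 and 87.7 CPM. ITGB7, the leukocyte subunit that pairs with alpha 4, stood at 59.96 CPM at E125 and 76.8 CPM at E85. ITGB2, the common beta subunit of leukocyte integrins, was under the minimum with 15 UMIs at E125 and 13 at E85. The 2 higher genes of 5 stood beside 16.1% higher and 8.89% lower among 2127 features, and 40 of the 59 genes had no UMI in the class.

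Classes with too few cells for a stage ratio still had clear members. Perivascular-like cells, 129 at E125 and 35 at E85, held CLDN10 at 1116 CPM at E125 (1034 to 1202) and 1404 CPM at E85 (1205 to 1626), above the germ cell-like levels. They also held the laminin-binding ITGA7 at 771 CPM at E125 (704 to 843) and 508 CPM at E85 (391 to 648). Glia-like cells, 76 at E125, had CDH19, the cadherin of Schwann cell precursors, at 1077 CPM (937 to 1232) and CDH6 at 320 CPM (246 to 409). Surface epithelium-like cells, 25 at E125 and 260 at E85, had CDH1 at 27.5 CPM at E125 (8.93 to 64.2) and 9.69 CPM at E85 (6.07 to 14.7), from 5 and 22 UMIs.

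The partners of these families gave mixed counts, from lists chosen with earlier results known. Of the integrin adaptors, the proteins that link integrin tails to actin, 9 of 15 measured genes were past 2-fold higher in germ cell-like cells and 1 was past 2-fold lower, with a median log2 ratio of 1.02. All features of that class gave 19.3% higher and 17.7% lower, with a median of -0.07. In pregranulosa-like cells 2 of 12 were higher and 3 lower, with a median of 0.20, beside 13.8% and 11.4% of all features and a median of -0.06. SHARPIN, an inhibitor of integrin activation, stood at 487 CPM at E125 and 192 CPM at E85 in germ cell-like cells, and at 59.0 and 29.2 CPM in pregranulosa-like cells. ACTN4, an actin crosslinker, stood at 29.6 CPM at E125 and 66.6 CPM at E85 in pregranulosa-like cells.

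Among cadherin partners, 2 of 10 measured genes were higher and 3 lower in germ cell-like cells, and 3 of 11 higher and 2 lower in pregranulosa-like cells. These counts stand beside the same 19.3% and 17.7% of all features in germ cell-like and 13.8% and 11.4% in pregranulosa-like cells, and nothing is read from them. Beta-catenin (CTNNB1), which binds the cadherin tail, stood at 23.4 CPM at E125 and 54.7 CPM at E85 in germ cell-like cells and at 39.0 and 88.0 CPM in pregranulosa-like cells. Afadin (AFDN), which links nectins to actin, stood at 172 CPM at E125 and 66.5 CPM at E85 in germ cell-like cells and at 106 and 25.3 CPM in pregranulosa-like cells. It was at least 2-fold higher in stromal-like and endothelial-like cells as well.

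Among tight junction partners, 1 of 9 measured genes was higher and 1 lower in germ cell-like cells, and 1 of 8 higher and 1 lower in pregranulosa-like cells, near the shares of all features (19.3% and 17.7%, and 13.8% and 11.4%). Paracingulin (CGNL1) stood at 85.3 CPM at E125 and 194 CPM at E85 in germ cell-like cells. The polarity protein PARD3 stood at 57.4 CPM at E125 and 23.7 CPM at E85 in pregranulosa-like cells. Of the integrin ligands, 4 of 14 were higher in each of these classes, with 0 lower in germ cell-like and 1 lower in pregranulosa-like cells. MFGE8, a secreted ligand of alpha V integrins, stood at 200.2 CPM at E125 and 55.9 CPM at E85 in germ cell-like cells. In pregranulosa-like cells the laminin chain LAMC1 stood at 60.3 CPM at E125 and 28.6 CPM at E85, and LAMB2 at 51.8 and 25.3 CPM. LTBP1, which tethers latent TGF-beta to the matrix, stood there at 116 CPM at E125 and 31.9 CPM at E85.

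Stromal-like cells had 10 of 21 measured ligands higher and 1 lower, with a median log2 ratio of 0.93, beside 17.9% and 11.2% of all features and a median of -0.03. The basement membrane collagen COL4A1 stood at 193 CPM at E125 and 57.9 CPM at E85, and COL4A2 at 192 and 33.6 CPM. Periostin (POSTN) stood at 23.1 CPM at E125 and 136 CPM at E85. Endothelial-like cells had 8 of 19 ligands higher and 1 lower, beside 19.2% and 7.5% of all features, and COL4A2 stood there at 842 CPM at E125 and 213 CPM at E85. Regulators of cadherin genes, such as the SNAI and ZEB factors, had 1 of 6 measured genes higher and 0 lower in germ cell-like cells. In pregranulosa-like cells 0 of 4 were higher and 1 lower. All features gave 19.3% higher and 17.7% lower in germ cell-like and 13.8% and 11.4% in pregranulosa-like cells. Nothing is read from so few genes.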

How the data were processed

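The authors deposited UMI counts per feature and barcode for 2 libraries, with no normalization. Cell Ranger is named in version 6.0.0 per the file headers and 3.1 per the submitters' processing notes, and for build and annotation a name is not given in the sources used here. Extraction is described for testes in the labels' protocol, while tissue and sex labels say ovary and female, and these were followed. Of 27271 features, 10655 have no symbol.

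Barcodes with under 500 genes or over 20% mitochondrial UMIs were left out, 809 at E125 and 425 at E85. Scrublet's own threshold marked 0 and 2 barcodes at these stages and so had not worked, and the highest scores, 0.8% per 1000 barcodes, were removed instead (557 at E125, 155 at E85). Cells of both libraries were clustered together with scanpy 1.11.5 and leidenalg 0.10.2 (2000 variable genes without the 59 members, 30 components, 15 neighbours, resolution 1). A cluster of 15 or more cells took the class with the highest mean marker share, at least 0.3 with 3 markers at 0.25 or more, unless markers of another class led its top genes or its depth was low. The names are rebuilt and may differ from the study's.

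A pair of choices followed a look at the first cluster names. Leiden had been stopped after 2 iterations, which merged pregranulosa-like and surface epithelium-like cells of E85 in 1 cluster of 392 cells, and was then run to convergence. A cluster with different names in the 2 libraries was left unnamed, which concerns 1 dividing cluster of 221 cells at E125 and 104 at E85. The members and lists were chosen with earlier results of these data known.

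For each class in each library the counts of a gene were added up and set over the sum of all genes. A floor of 3 UMIs was used for the calls, and printed folds use it only against 0 UMIs. Every member with 50 or more UMIs in germ cell-like or pregranulosa-like cells was named; in other classes, the 5 with the highest CPM and those past 2-fold with 20 CPM or more; of partner lists, a part of the genes past 2-fold with 50 CPM or more, at most 4 each way. Single members outside this rule (such as CDH1, ITGB2, stromal genes under 20 CPM and those of classes not compared) were named after their values were seen. TMM factors came from edgeR 4.0.16. Ratios and intervals were tested on simulated data.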

Additional observations from a re-analysis of the deposited data

Results flagged for a closer look

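For CDH7 and CLDN10 the stage ratio lay on opposite sides of 1 in different classes, with intervals that leave out 1 on both sides. Each rests on 1 library per stage, and the difference between the classes was not tested. CDH7 was higher at E125 by 7.84-fold in endothelial-like, 2.94-fold in pregranulosa-like and 1.57-fold in stromal-like cells, and stood at 0.574 of its E85 level in germ cell-like cells. The last value turned round, to a log2 ratio of 0.26, when every droplet counted equally. CLDN10 was higher at E125 by 7.02-fold in endothelial-like cells, against the floor of 3 UMIs, and by 2.62-fold in germ cell-like cells. It stood at 0.577 of its E85 level in stromal-like cells, with 7.83 CPM at E125 and 13.6 CPM at E85. That level was uneven among the E85 clusters. Cluster 0 stood at 15.5 CPM from 84 UMIs and cluster 14 at 20.8 CPM from 7 UMIs. Clusters 6 and 12 of E85 stood at 6.98 and 7.50 CPM, inside the range of 6.79 to 14.3 CPM of the E125 clusters. CLDN10 is highest in perivascular-like cells, and perivascular markers in endothelial-like cells summed to 442 CPM at E125 and 71.7 CPM at E85. Their part in the endothelial-like ratio was not tested.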

How the results depend on the processing

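No paired analysis was possible because each stage has 1 library and no replicate numbers. In germ cell-like cells the 4 genes at least 2-fold higher became 8 with TMM factors, 9 with cells weighted equally and 1 after thinning, and 0 lower became 1 (CDH18) with a minimum of 20 UMIs. In pregranulosa-like cells 7 higher became 3 after thinning and 4 at resolution 2, and 0 lower became 2 (CDH11 and ITGA2) with a minimum of 20 UMIs and 1 (ITGA2) under the clustering first run. Stromal-like cells had 5 lower in place of 1 with a minimum of 20 UMIs, endothelial-like cells 0 in place of 1 without doublet removal, and myeloid-like cells 1 higher in place of 2 after thinning and with a minimum of 100 UMIs. Genes that left the count of higher genes after thinning had fallen under the minimum of 50 UMIs. Causes of the other changes were not tested. No call of a single gene changed direction in any alternative. The median log2 ratio of all features in germ cell-like cells was -0.07, and 0.19 with TMM factors, 0.31 with cells weighted equally and 0.17 after thinning; in pregranulosa-like cells it was -0.06, and 0.18 with TMM factors; in myeloid-like cells 0.14 and -0.02. Resolution 0.5 named no pregranulosa-like cells, and 16 myeloid-like cells at E85 remained at resolution 2 and with separate clustering, so these gave no value. The alternatives chosen after seeing the data were the dividing cluster kept under its 2 names and the clustering first run, that one with and without the rule on 2 names. With that rule it left 2 pregranulosa-like cells at E125, and without it 814, beside 392 at E85, with 8 genes higher. Germ cell-like ratios rest on few deep droplets at E85, and genes under 50 UMIs are beyond what this depth can compare.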
